A study of Mus musculus with 6 samples.

Results

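Expression of 9 transcription factor genes of the stem cell homeobox programme was examined in mouse leukemic blasts. The genes were Hoxa5, Hoxa7, Hoxa9, Hoxa10, Hoxb2, Hoxb4, Meis1, Pbx3 and Mecom. They were chosen by name and not by a rule on their values, though with earlier results of these data known. They are 9 of the 53458 genes to which the deposited transcript values were summed. The blasts came from bone marrow of transplanted C57/BL6 mice with leukemia. Both genotypes carried Cebpa-/p30, in which the only Cebpa product is the short p30 form of this granulocyte transcription factor. The first genotype, called WT here, was Cebpa-/p30; Asxl1WT (3 libraries), and the second, called G643W, was Cebpa-/p30; Asxl1G643W/G643W (3 libraries), with the same change on both alleles of the chromatin regulator Asxl1. The sort kept CD45.2+ cells that were negative for CD3, B220 and Ter119 and had low levels of Gr1 and Mac1, and no normal bone marrow was analysed here. The labels do not say which libraries trace to separate primary leukemias, so p-values measure only the spread between these libraries. That spread was above counting error, with a chi-square per degree of freedom of 226.1 to 1168 between libraries of the same genotype. Its source, technical or biological, was not tested.

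Hox proteins are homeodomain transcription factors encoded in 4 clusters, and in blood the Hoxa and Hoxb genes are active in stem cells and silenced as myeloid cells mature. Meis and Pbx proteins are homeodomain partners that bind DNA together with Hox proteins, and Hoxa9 with Meis1 is a well-known driver pair of myeloid leukemia. Mecom, which encodes Evi1, is a zinc finger factor of the PR domain family that maintains hematopoietic stem cells and is activated in some leukemias. Expression of these genes is maintained by Kmt2a, menin and Dot1l complexes, and Asxl1 is a partner of Polycomb regulation at Hox loci.

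The libraries held 61167075 to 101189225 estimated reads. By its label G643W is no deletion of the gene, so the level of Asxl1 does not check the label. Asxl1 stood at 6.95, 3.68 and 7.15 TPM (transcripts per 1e6, a level scaled for transcript length) in the WT libraries, against 13.7, 20.2 and 15.5 TPM in those of G643W. These did not overlap, and the difference was not called (log2 fold change 0.95 ± 0.27 SE, edgeR adjusted p = 0.454). The main protein-coding model held 91.6% of Asxl1 reads but only part of these levels. That model alone ranged from 3.03 to 5.31 TPM over the WT libraries and from 6.67 to 9.59 TPM over those of G643W. The rest of the Asxl1 level lay on models with few of the reads. Progenitor and granule genes of the labelled blasts were present: Kit ranged from 2.12 to 35.9 TPM, Cd34 from 5.82 to 94.0 TPM and Mpo from 173 to 2180 TPM. The stem and progenitor list was uneven: Procr, Slamf1, Hlf and Fgd5 stayed at or under 0.341 TPM in all 6 libraries, while Ly6a spanned 1.37 to 126 TPM, Cd48 14.3 to 74.9 TPM and Gata2 0.0972 to 9.87 TPM. Markers of other cell types differed between libraries: the summed level of 13 neutrophil markers spanned 2730 to 78800 TPM over the WT libraries and 16200 to 185000 TPM over those of G643W. WT 1 stood apart in low-level reads. Of 1135 olfactory receptor genes, most of which blood does not use, 82.7% had a read there, against 48.1% to 68.3% in the other 5 libraries. This set was chosen after the data were seen. Its mean level was 0.145 to 0.381 TPM and its median 0 to 0.0181 TPM over the 6 libraries. A few of its genes were thus well above the rest, and it is not a purely unexpressed background. Over all 20654 genes tested, 25 were called (0.121% at adjusted p under 0.05, edgeR; 0.0533% higher and 0.0678% lower in G643W), and 0 to 16 when any 1 of the 6 libraries was left out, with a biological coefficient of variation of 52.8%. In these bulk samples, fewer cells of a type and less RNA per cell cannot be told apart.

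None of the 9 genes was expressed by the rule of at least 1 TPM in all 3 libraries of a genotype, a rule that 44.5% of 21896 protein-coding genes met. Over all 54 values (9 genes in 6 libraries) there were 1897 reads, of which Pbx3 held 1096 and Hoxb4 held 539. Without WT 3, Pbx3 met the rule, so that 1 member was expressed. A total of 10 values were 0, and 23 were at or under 3 reads. A count of 0 allows an expected count of up to 3 reads in a library, which is 0.0297 to 0.0491 reads per 1e6. This bound covers counting error only. Only 2 values reached 1 TPM, both of Pbx3. A weaker rule, at least 10 reads in at least 3 libraries, was met by Hoxb2, Hoxb4, Meis1 and Pbx3, and 65% of protein-coding genes met it. The same 4 genes passed the filter on low counts, which 64.4% of protein-coding genes passed, and were tested. Hoxa5, Hoxa7, Hoxa9, Hoxa10 and Mecom did not pass it.

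**Figure D1:**
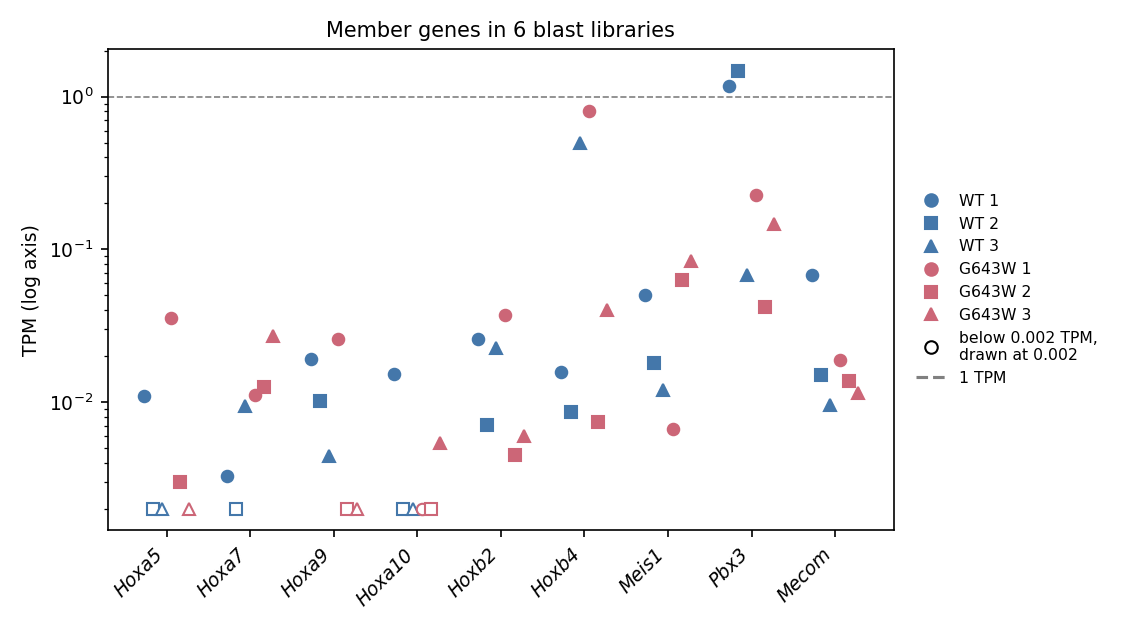
TPM of each of the 9 genes (log axis) in 6 libraries, blue for WT and red for G643W, with shapes for the replicate number. Open symbols are values below 0.002 TPM, and the dashed line is 1 TPM, which only Pbx3 passed, in WT 1 and WT 2.

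Among the Hoxa genes, Hoxa9 (6:52223100-52231089, minus strand, GRCm38), the partner of Meis1 in leukemia, had 8, 5 and 2 reads in WT and 8, 0 and 0 reads in G643W. Its levels were 0.0192, 0.0101 and 0.00439 TPM in the WT libraries, against 0.0259, 0 and 0 TPM in those of G643W, so that the highest library and the lowest were both G643W and the groups overlapped. Of its reads, 73.9% were assigned to the protein-coding model and 26.1% to a retained-intron model. Hoxa10 (6:52231197-52240854, minus), the neighbour of Hoxa9, had 3 reads in WT 1, 1 read in G643W 3 and 0 in the other 4 libraries. Hoxa5 (6:52201754-52204587, minus), a gene of the same cluster also used in lung and axial skeleton development, had 3, 0 and 0 reads in WT and 8, 1 and 0 in G643W. For Hoxa5, Hoxa9 and Hoxa10, the exact permutation test on TPM (two-sided, 3 against 3, smallest possible p 0.1) gave 0.7, 0.8 and 1. Their groups overlapped, and none of the 3 had more than 23 reads in all.

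Hoxa7 (6:52214491-52221854, minus), a gene between Hoxa5 and Hoxa9, was the one Hoxa gene whose levels did not overlap. It had 1.1, 0 and 3 reads in WT and 3, 5 and 8 reads in G643W, 20 reads in all. Per length these were 0.00326, 0 and 0.00943 TPM in the WT libraries, against 0.0111, 0.0126 and 0.0269 TPM in those of G643W (exact permutation p = 0.1, the smallest possible, 3 against 3). As it did not pass the filter, it was outside the 20654 tested genes, in which 15.9% had levels that did not overlap (7.05% higher and 8.89% lower in G643W), so this ordering is no result about Hoxa7.

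The RefSeq promoters (GRCm38.p6, 250 bases before the start to 50 after it) of 7 of the 9 genes were read, 9 sequences in all, with no entry for Hoxb2 and Pbx3. CG dinucleotides numbered 4 to 29 in these 300 bases against a median of 7 over 32851 promoters, and 8 of 9 were above that median. The Hoxb4 promoter is shown because Hoxb4 had the most reads of the 7 genes, and that of Hoxa9 because it held the fewest CG dinucleotides. Capitals mark CG. The Hoxb4 sequence lies at 11:96318017-96318316 on the plus strand and the Hoxa9 sequence at 6:52227321-52227620 on the minus strand.
Hoxb4: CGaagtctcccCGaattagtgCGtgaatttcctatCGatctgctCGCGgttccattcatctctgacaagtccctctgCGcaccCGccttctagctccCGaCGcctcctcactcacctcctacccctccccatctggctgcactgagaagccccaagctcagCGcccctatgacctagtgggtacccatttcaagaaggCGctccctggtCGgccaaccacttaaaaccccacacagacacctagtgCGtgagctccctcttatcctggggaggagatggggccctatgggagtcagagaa
Hoxa9: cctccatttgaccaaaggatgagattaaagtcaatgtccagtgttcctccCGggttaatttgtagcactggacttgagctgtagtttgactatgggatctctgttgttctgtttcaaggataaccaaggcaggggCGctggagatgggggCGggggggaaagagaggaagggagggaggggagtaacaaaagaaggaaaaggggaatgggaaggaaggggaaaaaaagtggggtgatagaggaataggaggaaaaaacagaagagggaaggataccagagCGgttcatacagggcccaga
The motif TTGCNNAA, recognised by C/EBP factors, was in 1 of the 9 promoters on either strand (Hoxa10) against 10.8% of all promoters. TGATNNAT, a Hox-Pbx motif, was in 1 of 9 (Mecom) against 8.85%, and TGACAG, a Meis motif, in 1 of 9 (the other Mecom promoter) against 19.2%. A match is a description of letters, not of binding.

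Of the Hoxb genes, Hoxb4 (11:96318267-96321638, plus), known for expanding blood stem cells, was the one with the most reads. It had 7, 4 and 214 reads in WT and 294, 4 and 16 in G643W. The levels were 0.0158, 0.00857 and 0.496 TPM in the WT libraries, against 0.803, 0.00737 and 0.0398 TPM in those of G643W. One library of each genotype was high, WT 3 and G643W 1, which held 94.3% of all Hoxb4 reads, and the groups overlapped. The mean was 0.997 ± 1.60 CPM (TMM-scaled reads per 1e6, SD, n = 3) in WT and 1.52 ± 2.41 CPM in G643W. The log2 fold change was 0.60 ± 1.84 SE, with an edgeR adjusted p of 0.91. Without G643W 1 the sign turned, to -2.88 on the log2 scale.

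Its neighbour Hoxb3, named here after its values were seen, had 6.2, 0 and 36 reads in WT and 297, 5 and 6 in G643W, 84.8% of them in G643W 1. The libraries with most Hoxb3 reads were therefore those with most Hoxb4 reads, and Hoxb3 also did not pass the filter. The summed level of 5 promyelocyte granule markers (Mpo, Elane, Prtn3, Ctsg and Ms4a3, all expressed) was highest in the same libraries, at 4180 TPM in WT 3 and 6040 TPM in G643W 1 against 740 to 2540 TPM in the other 4, and its part in the Hoxb4 values was not tested.

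Hoxb2 (11:96350525-96354012, plus), used in hindbrain and in blood progenitors, had 14, 4 and 12 reads in WT and 16.7, 3 and 3 in G643W. All of its reads were assigned to Hoxb2-202, a 3134-base retained-intron model, and 0 to the spliced model Hoxb2-201. Levels were 0.0259, 0.00709 and 0.0226 TPM in the WT libraries, against 0.0372, 0.00446 and 0.00601 TPM in those of G643W, so that G643W held both the highest library and the lowest. The groups overlapped, and the log2 fold change was -0.34 ± 0.90 SE (edgeR adjusted p = 0.895).

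Across all 39 Hox genes of the 4 clusters, none was expressed and 4 were detected: Hoxb2, Hoxb4, Hoxb1 and Hoxc9, the third of which was named after its values were seen. These 4 were tested, and none was called. Hoxc9, a posterior patterning gene, had the lowest p of the 4, with 0.0930 ± 0.0722 CPM in WT and 0.197 ± 0.165 in G643W (log2 fold change 1.08 ± 0.90 SE, edgeR adjusted p = 0.655). Leaving out 1 library gave 0.24 (without G643W 2) to 1.83 (without WT 1). The number of Hox genes with at least 1 read was 36, 13 and 14 in WT and 21, 22 and 13 in G643W. WT 1, the library with the most olfactory receptor genes with a read, was highest with 36. The 95th percentile level of the olfactory receptor genes was 0.1 to 0.26 TPM over the 6 libraries. Hoxb4 was above it in WT 3 and G643W 1 and Pbx3 in WT 1 and WT 2, and the other 7 members were above it in no library. Hox reads summed over all 39 genes were 230, 39 and 317 in WT and 676, 115 and 77 in G643W, and 217, 35 and 67 against 85, 106 and 55 without Hoxb3 and Hoxb4. Of 14 non-coding genes listed in the clusters, 13 were found, and none was detected.

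**Figure D2:**
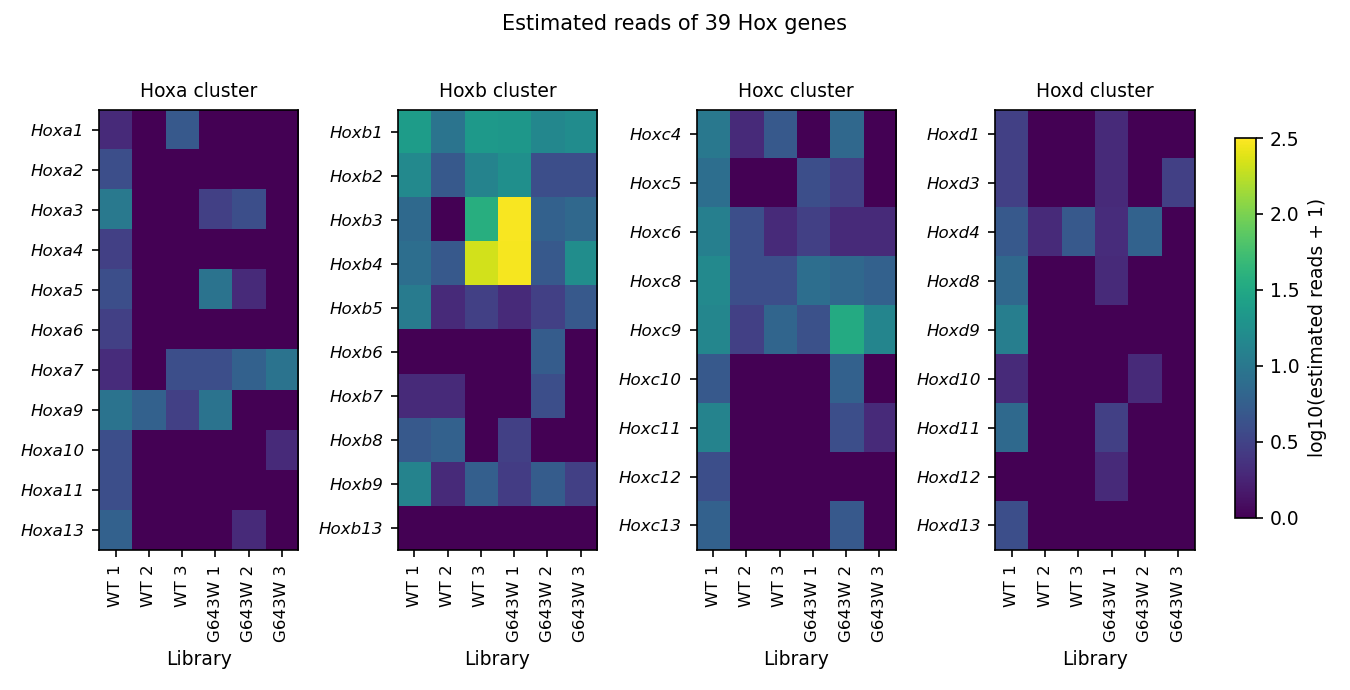
Estimated reads of the 39 Hox genes in 6 libraries, coloured as log10(reads + 1), in 4 panels by cluster. The brightest cells are Hoxb4 in WT 3 and G643W 1 and Hoxb3 in G643W 1, and WT 1 has faint reads in most genes (36 of 39).

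Among the partner genes, Pbx3 (2:34171457-34373142, minus), the Pbx family member most tied to Hoxa9-driven leukemia, had the most reads of the 9. It had 423, 572 and 25 reads in WT and 44, 19 and 13 in G643W. The levels were 1.17, 1.47 and 0.0678 TPM in the WT libraries, against 0.228, 0.0418 and 0.146 TPM in those of G643W. WT 1 and WT 2 were high and held 90.8% of the reads, while WT 3 lay within the G643W range, so the groups overlapped (exact permutation p = 0.3, two-sided, 3 against 3).

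In CPM, Pbx3 averaged 4.66 ± 3.96 (SD, n = 3) in WT and 0.344 ± 0.260 in G643W. The log2 fold change was -3.76 ± 1.16 SE (edgeR unadjusted p = 0.0139, adjusted p = 0.481). It was the 1 of 4 tested members with an unadjusted p under 0.05, which 9.66% of all tested genes had, and 0 of 4 were called. DESeq2 called Pbx3 lower in G643W (log2 fold change -3.78 ± 0.99 SE, adjusted p = 0.0108), and it called 2.21% of all genes with an adjusted p, in either direction. Without WT 1 the log2 fold change was -3.62 ± 1.30 SE (edgeR adjusted p = 0.608), and without WT 2 it was -3.08 ± 1.19 SE (edgeR adjusted p = 0.869).

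Most reads of Pbx3 were split between 2 protein-coding models, Pbx3-201 (52.4%) and Pbx3-202 (45.1%). Pbx3-201 had 179.2, 338.3 and 13.3 reads in WT and 38.2, 0 and 4.9 in G643W. Pbx3-202 had 234.2, 233.7 and 11.7 reads in WT and 0, 15 and 0 in G643W. All 3 WT libraries had reads of both models, and each G643W library had reads of 1 of them, at 38.2 reads or fewer. Other models held few reads but part of the TPM. Pbx3-201 held 0.125 of 0.228 TPM in G643W 1 and 0.0143 of 0.146 TPM in G643W 3, with Pbx3-202 at 0 in both. In CPM, WT 3 (0.332) was above G643W 3 (0.175), the reverse of their order in TPM. Pbx3-202 skips exon 7 of the 9 exons of Pbx3-201, at 2:34176749-34176861 on the minus strand. The models share 6 identical exons, and their first and last exons also differ at the outer ends, by 6 and 266 bases. Exon 7 is 113 bases long, which is not a multiple of 3, and the coding length is 1302 bases in Pbx3-201 and 1053 in Pbx3-202. The exon is shown in capitals with 20 bases of exon 6 before it and 20 bases of exon 8 after it, as the exon present in 1 of the 2 models.
Pbx3-201 exon 7: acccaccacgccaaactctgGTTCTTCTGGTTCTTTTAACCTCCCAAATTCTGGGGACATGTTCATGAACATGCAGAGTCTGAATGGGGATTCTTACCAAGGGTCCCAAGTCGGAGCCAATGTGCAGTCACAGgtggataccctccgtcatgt

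Some marker levels were also highest in WT 1 and WT 2, the libraries high in Pbx3. The summed TPM of 10 dendritic cell markers was 271, 232 and 142 in WT and 30.8, 26.1 and 33.1 in G643W, that of 12 monocyte and macrophage markers was 768, 552 and 395 against 321, 150 and 353, and that of 10 stem and progenitor markers was 274, 190 and 123 against 124, 45 and 75.9. WT 1 and WT 2 were the 2 highest libraries in each of these 3 sums and the 2 lowest in neutrophil markers. In WT 3 the dendritic and monocyte sums were above those of every G643W library. Its stem and progenitor sum (123) and its Pbx3 level both lay within the G643W range. Of these lists, 5 of 10 dendritic, 11 of 12 monocyte and 4 of 10 stem and progenitor markers were expressed, and the part of these cell types in the Pbx3 values was not tested. The dendritic sum was mostly 2 class II antigen presentation genes, H2-Eb1 (107, 81.4 and 59.0 TPM in WT and 7.33, 8.18 and 11.0 in G643W) and H2-Ab1 (141, 95.1 and 69.2 TPM in WT and 18.3, 11.6 and 13.4 in G643W). These were the 2 dendritic markers called lower, with log2 fold changes of -3.32 ± 0.31 SE and -2.93 ± 0.30 SE (edgeR adjusted p = 0.0257 and 0.0346), and were named after their values were seen. Of the other dendritic markers, Itgax (-0.25), Zbtb46 (-0.13), Xcr1 (0.20) and Ccr9 (0.27) had log2 fold changes near 0, and Cd209a (-7.27), Siglech (-3.18) and Flt3 (-3.04) had low ones, none of them called. Clec9a was also tested and not called. Over all 10, 8 log2 fold changes were below 0 and 2 above, with a median of -1.84. The groups did not overlap for 5 of the 10, all lower in G643W, beside 15.9% of all tested genes (8.89% lower). The other marker lists gave no called gene.

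Meis1 (11:18879817-19018985, minus), the Hox cofactor that drives leukemia with Hoxa9, had 25.3, 4 and 4 reads in WT and 3, 36 and 25 in G643W. Its levels were 0.0499, 0.0181 and 0.012 TPM in the WT libraries, against 0.00669, 0.0631 and 0.0835 TPM in those of G643W. The lowest library and the highest were both G643W, and the groups overlapped. The log2 fold change was 0.84 ± 0.99 SE (edgeR adjusted p = 0.748). Reads lay on 7 of its 9 models. Among models with at least 10% of its reads, protein-coding ones held 26.9% and 12.1%, and retained-intron ones 21.1% and 17.7%. A processed transcript held 10.2%. The reads of the protein-coding model with 26.9% were all in G643W 2, and those of the model with 12.1% all in WT 1. Gm37818, a gene model inside Meis1 on the same strand, had 5.01 to 25 reads, and whether reads of the 2 were told apart is not known.

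Mecom (3:29951296-30548008, minus) had 25.1, 3 and 7.1 reads in WT and 8, 7 and 2 in G643W, spread over 8 of its 17 models. Its levels were 0.0674, 0.0149 and 0.00951 TPM in the WT libraries, against 0.0187, 0.0138 and 0.0115 TPM in those of G643W. WT 1 was highest and WT 3 lowest, the groups overlapped (exact permutation p = 0.8, two-sided, 3 against 3), and the antisense gene Mecomos had 7.49 to 19.5 reads.

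Ordered by mean TPM, the members ran Pbx3 (0.521), Hoxb4 (0.229), Meis1 (0.0389), Mecom (0.0227), Hoxb2 (0.0172), Hoxa7 (0.0106), Hoxa9 (0.00993), Hoxa5 (0.00829) and Hoxa10 (0.00344). The order was not the same within each genotype: in G643W the mean of Hoxb4 (0.283) was above that of Pbx3 (0.138), and in WT that of Mecom (0.0306) was above that of Meis1 (0.0267). The ranges over libraries of every neighbouring pair in this order overlapped. Pbx3 had a higher mean TPM than 50.2% of protein-coding genes, Hoxb4 than 46.2%, Meis1 than 34.9% and Hoxa10 than 11.2%.

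By log2 CPM over the 6 libraries, among 10181 protein-coding candidates, the genes most like Pbx3 were Cfp (Pearson r 0.996), Gemin8 (0.994) and Mrpl9 (0.994). Those most like Hoxb4 were Mbd1 (0.986), mt-Nd6 (0.980) and Smpd4 (0.978). Those most like Meis1 were Relt (0.991), Letm2 (0.990) and Ptpn1 (0.989). The points are 6 libraries and each r is among the highest of all candidates, so these are descriptions.

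The wider families contained expressed genes. Of 14 TALE homeobox genes, the family of Meis and Pbx, 4 were expressed, 10 were tested and 0 were called, with 5 log2 fold changes above 0 and 5 below and a median of 0.09, beside -0.01 over all genes. The TALE median was -0.15 without G643W 1 and 0.22 without G643W 3. Pbx2, a broadly used Pbx gene, stood at 19.0, 15.9 and 25.7 TPM in the WT libraries, against 21.2, 26.6 and 26.2 TPM in those of G643W, with overlapping groups (log2 fold change 0.20 ± 0.25 SE, edgeR adjusted p = 0.758). Pknox1, a Meis relative, stood at 5.86, 6.51 and 10.1 TPM and 8.34, 15.0 and 14.1 TPM. Both were named after their values were seen. Tgif1, a repressor of the same family, stood at 24.6, 13.6 and 10.7 TPM in the WT libraries, against 16.0, 3.19 and 5.45 TPM in those of G643W, and was with Pbx3 one of the 2 TALE genes with the lowest p (log2 fold change -1.16 ± 0.55 SE, edgeR adjusted p = 0.534).

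**Figure D3:**
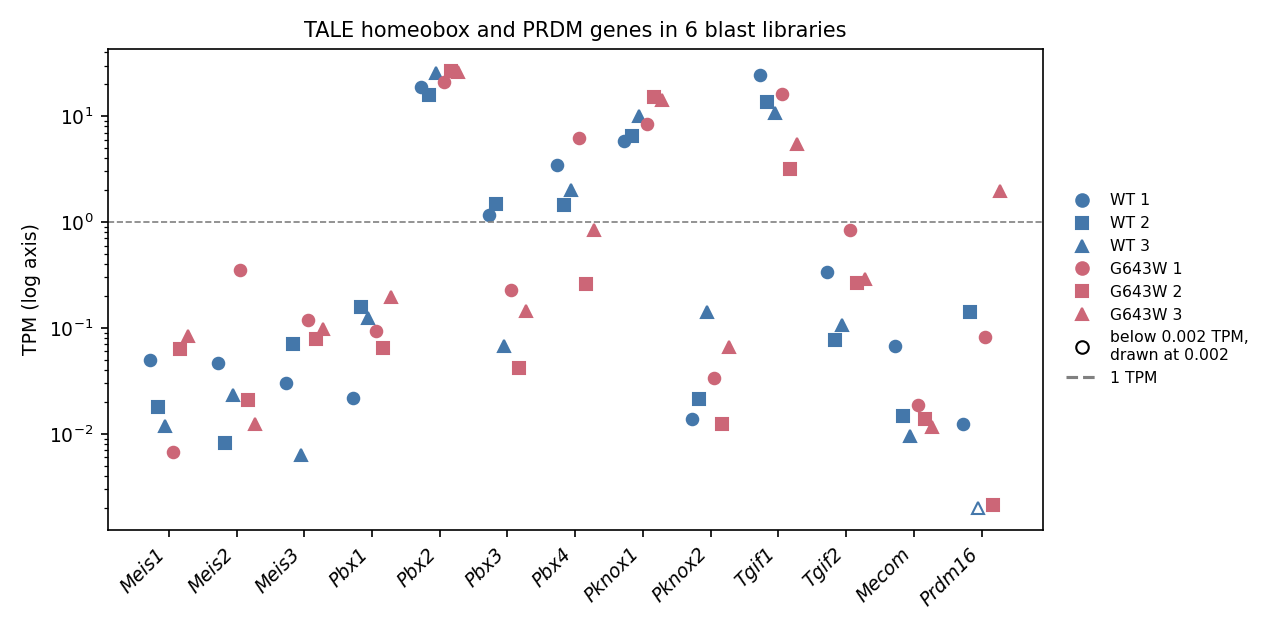
TPM of the Meis, Pbx, Pknox and Tgif genes and of Mecom and Prdm16 (log axis) in 6 libraries, with colours, shapes and the 1 TPM line as in the plot of the 9 genes. Pbx2, Pknox1 and Tgif1 lie above 1 TPM in all 6 libraries, Meis1 and Mecom below 0.1 TPM in all 6.

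Of 10 PRDM genes, the relatives of Mecom, 5 were expressed, 8 were tested and 0 were called, with a median log2 fold change of -0.03, which was 0.16 without WT 3. Prdm16, a stem cell relative of Mecom, had 19, 30 and 1 reads in WT and 16, 4 and 597 in G643W, 89.5% of all its reads in G643W 3. Among the 6 libraries only G643W 3 passed 1 TPM, and the log2 fold change of 3.59 ± 1.89 SE was not called (edgeR adjusted p = 0.547). Without G643W 3 it was -0.73. Prdm11 averaged 8.28 ± 1.85 CPM in WT and 4.01 ± 2.60 in G643W (log2 fold change -1.05 ± 0.52 SE, edgeR adjusted p = 0.538).

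Of 26 regulators of Hox clusters, 22 were expressed, 23 were tested and 0 were called, with 13 log2 fold changes above 0, 10 below and a median of 0.12, which was -0.01 without WT 1, 0.28 without WT 3 and 0.24 without G643W 1. Kmt2a, the methyltransferase that maintains Hox expression, stood at 1.76, 1.75 and 3.18 TPM in the WT libraries, against 2.30, 2.92 and 3.15 TPM in those of G643W. Men1, encoding its partner menin, stood at 12.7, 17.3 and 24.7 TPM against 23.0, 15.0 and 20.3 TPM, and both were named after their values were seen. Their groups overlapped, as did those of Npm1, a nucleolar chaperone mutated in leukemia, at 822 ± 283 CPM against 436 ± 241 (log2 fold change -0.91 ± 0.48 SE, edgeR adjusted p = 0.542). The groups of Aff4, a transcription elongation scaffold, did not overlap, at 56.1 ± 6.57 CPM against 72.5 ± 6.95 (log2 fold change 0.37 ± 0.19 SE, edgeR adjusted p = 0.542). Of the 23, 4 did not overlap (Aff4, Kat7, Ctcf and Nsd1, the last 3 named after their values were seen), beside 15.9% of all tested genes. Without WT 3 it was 14, beside 34.4% of all tested genes, and without G643W 1 it was 13, beside 43.9%. The caudal genes Cdx1, Cdx2 and Cdx4, which activate Hox clusters in the embryo, were not detected.

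Of 20 genes described as targets of HOXA9 and MEIS1, 16 were expressed and 19 tested, and 0 were called, with 6 log2 fold changes above 0, 13 below and a median of -0.19. Unadjusted p was under 0.05 for 5 of the 19, beside 9.66% of all tested genes. The groups did not overlap for 7, beside 15.9% of all tested genes (7.05% higher and 8.89% lower), with Id2 higher and Flt3, Sox4, Lmo2, Cd34, Bcl2 and Dnmt3a lower in G643W, 5 of them named after their values were seen. Without G643W 1, 11 did not overlap, beside 43.9% of all tested genes. The median was -0.76 without G643W 1, -0.05 without G643W 2 and -0.11 without G643W 3. Flt3, the cytokine receptor of early progenitors and of dendritic cells, stood at 5.78, 3.14 and 2.28 TPM in the WT libraries, against 0.382, 0.203 and 0.888 TPM in those of G643W. All 3 WT libraries were above all 3 G643W libraries, and the log2 fold change was -3.04 ± 0.61 SE (edgeR adjusted p = 0.298). Id2, an inhibitor of helix-loop-helix factors, stood at 45.3, 30.9 and 39.2 TPM in the WT libraries, against 64.7, 95.6 and 113 TPM in those of G643W, also without overlap (log2 fold change 1.19 ± 0.27 SE, edgeR adjusted p = 0.379). DESeq2 called Flt3 lower (adjusted p = 0.00018) and Id2 higher (adjusted p = 0.0412). Flt3 is also in the dendritic cell list, and Kit and Cd34 in the stem and progenitor list. The dendritic marker sum was, like Flt3, higher in all 3 WT libraries (142 to 271 TPM) than in the G643W libraries (26.1 to 33.1 TPM), and the part of these cells in the values of Flt3 and Id2 was not tested.

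**Figure D4:**
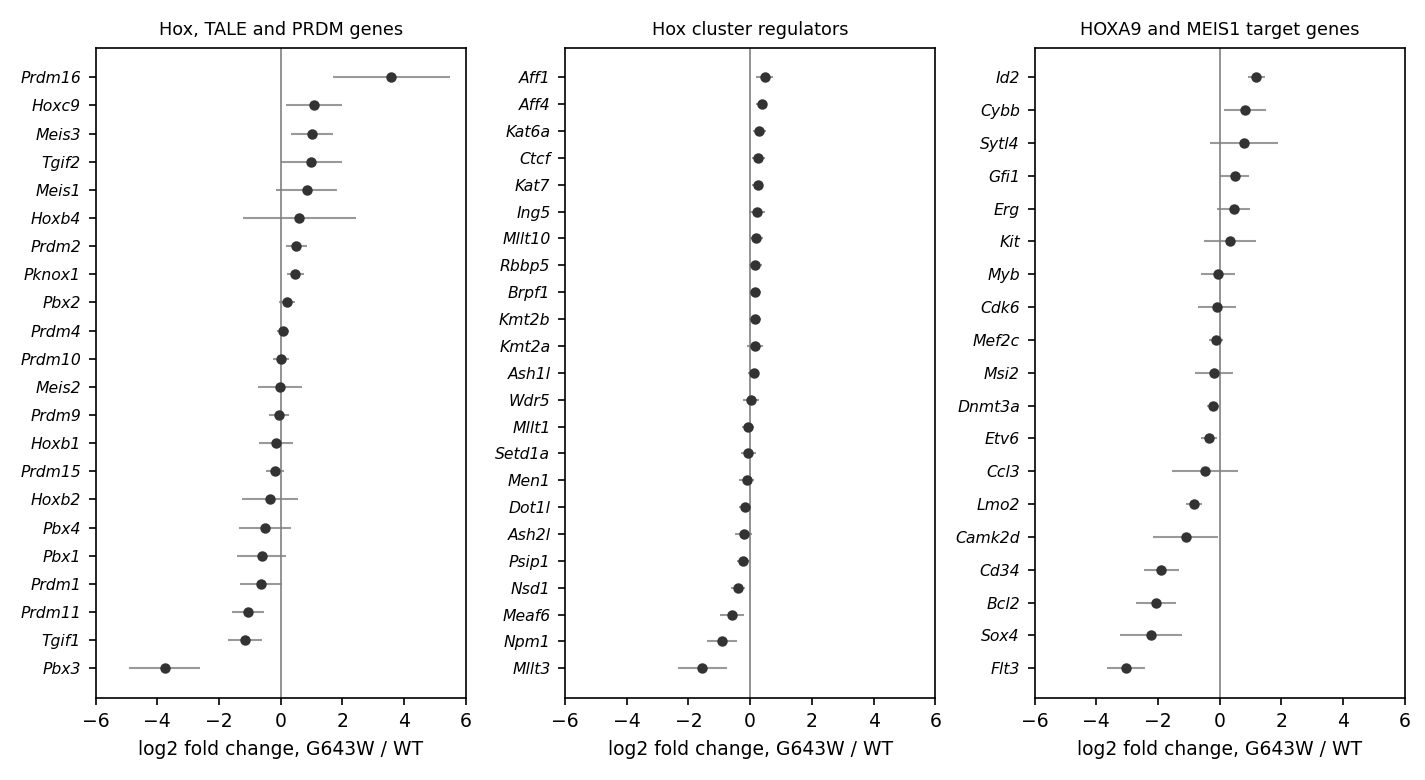
edgeR log2 fold change (G643W over WT) with its SE as bars for every tested gene of 5 lists (Hox, TALE and PRDM genes in the first panel, Hox cluster regulators, and HOXA9 and MEIS1 targets), with cell type markers not drawn as a list. Points right of the vertical line at 0 are higher in G643W, and none of these genes was called. Pbx3 (-3.76), Prdm16 (3.59) and Flt3 (-3.04) lie farthest from 0 among the genes drawn.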

How the data were processed

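RNA sequencing of sorted blasts was analysed from 6 libraries, 3 of each Asxl1 genotype. The deposited tables hold, per the file headers, estimated counts of reads and TPM per transcript from Salmon, and the submitters' processing notes name Salmon 0.12.0, bcl2fastq, mm10 and GRCm38.p6. For the index, options and strand setting of Salmon, the sources used here give nothing. Of 136288 transcripts in each table, 136176 matched GENCODE M21 identifiers and were summed over 53458 genes. The other 112 held at most 0.0365% of the reads. Estimated counts were rounded to whole numbers.

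Genes were tested with edgeR 4.0.16 (R 4.3.3, TMM scaling, filterByExpr with a minimum count of 10, quasi-likelihood test, Benjamini-Hochberg adjustment over all 20654 genes, threshold 0.05), after a check on simulated data. DESeq2 1.42.0 and limma 3.58.1, on log2(TPM + 1) and log2(TPM + 0.1) of genes at 0.1 TPM or more in 3 libraries, were alternatives, with other scalings, no filter, length-scaled counts, coding genes alone, a replicate block and leaving out each library. Levels without overlap were also counted in TPM, an alternative chosen after seeing the data. Replicate numbers are not stated to pair the libraries. Correlations of deviations were 0.112, -0.165 and 0.176 for same-numbered libraries and -0.284 to 0.228 for the others. With 3 libraries of each genotype these cannot exclude a pairing.

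The members and gene lists were chosen with earlier results of these data known. Named were all 9 members, the called genes of each list other than the cell type markers or else the 2 with the lowest edgeR p, expressed Hox genes, and the 3 genes most like each of the 3 members with the highest mean TPM. Other genes named were chosen after their values were seen, Asxl1 and the markers aside. Near-identical copies share reads in Salmon's model, so low estimates are uncertain.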

Additional observations from a re-analysis of the deposited data

How the results depend on the processing

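The number of called members was 0, and 1 (Pbx3) with DESeq2; leaving out each library gave 0 to 0. DESeq2 also gave 1 call among TALE genes (Pbx3) and 2 among HOXA9 and MEIS1 targets (Flt3 and Id2), and no filter gave 1 there (Flt3). The 25 calls over all genes became 16 without scaling, 104 without a filter, 427 with DESeq2, 10 with length-scaled counts, 66 with limma on log2(TPM + 0.1), 2 with coding genes alone and 0 with the replicate block (1772 at unadjusted p under 0.05), and 0 to 16 when a library was left out. With the replicate block Pbx3 was at -3.13 ± 1.02 SE (edgeR adjusted p = 0.563), and the block changed no call among the members. No member was expressed, and 1 (Pbx3) was without WT 3, so leaving out a library gave 0 to 1. The log2 fold change of Pbx3 was -3.78 with DESeq2 and negative in all 16 settings, with adjusted p from 0.0108 to 0.96. It ran from -4.47 to -2.84 in the settings on counts. With limma it was -0.66 on log2(TPM + 1) and -1.63 on log2(TPM + 0.1), scales on which the added constant shrinks differences at low levels. Leaving out a library gave -4.47 to -3.08 for Pbx3, 0.39 to 2.22 for Meis1, -1.73 to 0.10 for Hoxb2 and -2.88 to 4.31 for Hoxb4. Hoxb2 turned to 0.10 without G643W 2 and 0.06 without G643W 3, and Hoxb4 to -2.88 without G643W 1. Differences in TPM (G643W minus WT) turned sign when a library was left out: Hoxa5 to -0.00218 (range -0.00218 to 0.0157), Hoxa9 to 0.00139 and 0.00174 (-0.0112 to 0.00174), Hoxa10 to 0.0018 (-0.00583 to 0.0018), Hoxb2 to 0.00105, 0.00231 and 0.00309 (-0.0133 to 0.00309), Hoxb4 to -0.15 (-0.15 to 0.271) and Mecom to 0.00252 (-0.0264 to 0.00252). Regulators without overlap numbered 4, and 1 without scaling, a setting for which the share over all tested genes was not computed. DESeq2 gave no adjusted p for Hoxb2 and Hoxb4, and limma tested Pbx3 alone among the members. With 61167075 to 101189225 reads per library, a count of 0 allows an expected count of up to 3 reads. Observed values of up to 3 reads are low and uncertain, but those above 0 are not the same as 0. The causes of the changes between settings were not tested.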
